A study of Mus musculus with 6 samples.

Results

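Wnt feedback inhibitors and the R-spondin receptors Lgr5 and Lgr6 were followed in primary mouse astrocyte cultures through inhibition of the kinase GSK-3 and its removal. The set was given as a list of gene names: Axin2, Nkd1, Nkd2, Notum, Rnf43, Znrf3, Apcdd1, Wif1, Lgr5 and Lgr6. All 10 were found on the array, on 11 of 41174 non-control probes, among 17266 genes that could be named. Nkd2 had 2 probes and every other gene had 1.

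The cultures were cortico-striatal astrocytes from wild-type C57BL/6J pups, 1 day after birth, grown in medium with 10% serum. All cultures, the control cultures included, had received 5 µM cytosine arabinoside for 2 days to remove dividing cells, and all treatments began at 13 days in vitro. Control cultures were labelled as control medium, whereas the protocol speaks of DMSO matched to the drug. In Ro cultures the GSK-3 inhibitor Ro3303544 was present at 1 µM for 48 h. Washout cultures received the same 48 h of treatment and then 48 h in growth medium without it. Each group had 2 one-colour arrays, and nothing in the labels says whether the 2 cultures of a group were prepared separately, so that the p-values measure only the spread between these samples.

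In the Wnt pathway, GSK-3 acts inside a complex that marks beta-catenin for destruction. When GSK-3 is blocked, beta-catenin accumulates and, with TCF/LEF factors, activates target genes. Several of these targets damp the pathway in turn. Axin2 rebuilds the destruction complex, Nkd1 and Nkd2 bind Dishevelled, Rnf43 and Znrf3 are membrane ubiquitin ligases that remove Frizzled receptors, Notum strips a lipid from Wnt proteins, and Wif1 and Apcdd1 bind Wnt proteins outside the cell. R-spondins, held by Lgr receptors, clear Rnf43 and Znrf3 from the membrane and so raise Wnt receptor levels.

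Each array had 60.4% to 65.3% of its probes well above background, with a 75th percentile of intensity between 631 and 807. Over the 20101 features, r between replicates was 0.992 to 0.996. The control and Ro arrays lay on 1 slide and the washout arrays on another, and the harvest fell on day 17 in vitro for washout and on day 15 for the rest. Slide, age and washout therefore cannot be told apart for any gene here. Spots with little signal (well above background on no more than 2 of 6 arrays) had a median intensity of 3.49 to 4.80 on the first slide and 5.91 to 5.92 on the second. All 9 astrocyte markers examined were well above background on all 6 arrays.

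Ro raised all 10 genes above control, and no control array overlapped a Ro array for any of them. The median change of the set was 4.80 on the log2 scale, against 0.00 over all features. Of all features 19.4% were called higher in Ro at an adjusted p under 0.05 and 38.5% were higher with no overlap between arrays. A rise of at least 4 on the log2 scale, 16-fold, was found for 6 of the 10 genes and for 0.338% of all features. With normexp background correction it was found for 3 of the 10 genes, and the share of all features was not counted. Apcdd1 and Lgr5 were above background on both arrays of the Ro group only and entered the test through it. Of the other 8 genes all 8 rose. Each change is given in log2 units, one group's mean less the other's, ± its standard error (limma, 2 arrays per group). Intensities are given as deposited, before scaling between arrays.

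**Figure D1:**
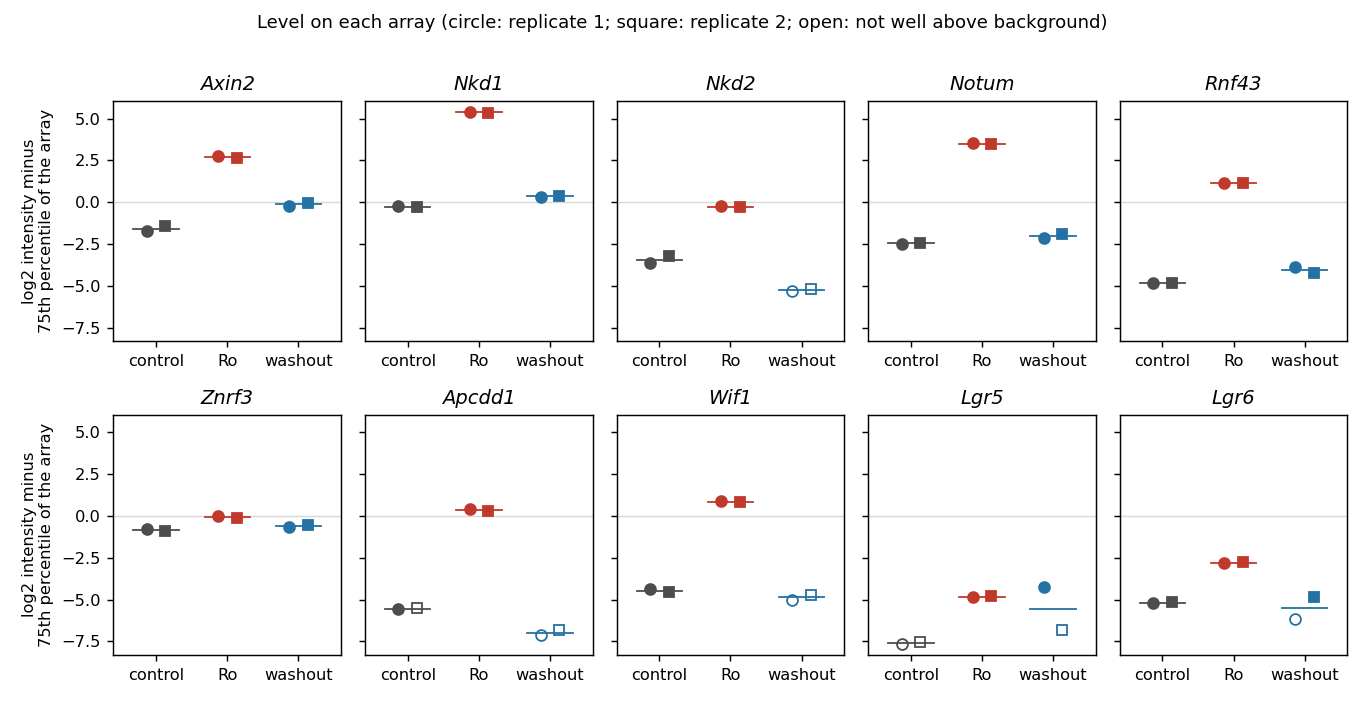
Level of each of the 10 genes on each of the 6 arrays, as log2 processed intensity minus the array's 75th percentile (vertical axis), with a horizontal line at each group's mean. Filled points were well above background and open points were not; the Ro arrays are above the control arrays for every gene, and the 2 washout arrays of Lgr5 and of Lgr6 lie apart.

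Among the intracellular inhibitors, Axin2 read 227 and 233 in control, 5451 and 4929 in Ro, and 662 and 758 in washout. The 3 groups did not overlap, with washout between the other two. The rise in Ro was 4.29 ± 0.13, or 19.5-fold (adjusted p = 1.0e-04). Nkd1, which binds Dishevelled, read 636 and 515 in control, 34343 and 31212 in Ro, and 958 and 1011 in washout. Its rise in Ro was 5.63 ± 0.07, or 49.6-fold (adjusted p = 2.7e-05). The order control, washout, Ro was the same as for Axin2, but the Nkd1 washout arrays lay much nearer to control.

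Nkd2, the paralogue of Nkd1, read 60.9 and 67.1 in control, 678 and 643 in Ro, and 19.5 and 21.4 in washout, where neither array was well above background. It rose in Ro by 3.16 ± 0.14, or 8.96-fold (adjusted p = 2.3e-04). Its washout arrays were the lowest of the 6. The other Nkd2 probe was dimmer, at 10.3 and 4.68 in control, 101 and 57.9 in Ro, and 5.56 and 5.43 in washout, and was well above background in Ro only. Both Ro readings of this probe lay above its other 4, but without a control reading above background it gives no size for the rise. On each Ro array the rise of Nkd1 exceeded that of Nkd2, by 2.50 and 2.44, a mean of 2.47. The intervals of the 2 changes did not overlap (5.45 to 5.82 for Nkd1 and 2.80 to 3.53 for Nkd2, 95% from limma).

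The membrane ubiquitin ligases differed widely in size of response. Rnf43 read 26.8 and 22.3 in control, 1807 and 1742 in Ro, and 52.6 and 41.5 in washout. It rose by 5.98 ± 0.13, or 63.0-fold (adjusted p = 4.9e-05). Znrf3, its paralogue, was already well above background in control at 437 and 344, and read 807 and 729 in Ro and 475 and 543 in washout. Its rise of 0.78 ± 0.09, or 1.72-fold, passed the test (adjusted p = 0.0028). The rise of Rnf43 exceeded that of Znrf3 by 5.15 and 5.25 on the 2 Ro arrays, and the intervals lay far apart (5.63 to 6.32 against 0.54 to 1.01). An exact two-sided permutation test of 2 arrays against 2 cannot go below p = 0.333, which it gave for this difference and for that between Nkd1 and Nkd2.

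The inhibitors that act outside the cell rose by 5.32 to 5.96. Notum, the secreted enzyme, read 136 and 116 in control, 9228 and 8725 in Ro, and 171 and 211 in washout, a rise in Ro of 5.96 ± 0.11, or 62.1-fold (adjusted p = 3.8e-05). Wif1, which binds Wnt proteins, read 35.9 and 26.6 in control, 1475 and 1365 in Ro, and 23.4 and 29.9 in washout. Its rise was 5.32 ± 0.13, or 39.8-fold (adjusted p = 6.1e-05). The control and washout arrays of Wif1 overlapped as deposited, though not after scaling, and Feature Extraction called both control arrays and neither washout array well above background. Apcdd1, a membrane-bound inhibitor, read 15.8 and 13.8 in control, 1080 and 982 in Ro, and 5.46 and 6.80 in washout. Only 1 of its control arrays and none of its washout arrays was well above background. Its rise was 5.92 ± 0.11, or 60.5-fold (adjusted p = 3.8e-05).

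Of the R-spondin receptors, Lgr5 and Lgr6 were dim in every group. Lgr6 read 20.5 and 17.7 in control, 117 and 115 in Ro, and 10.9 and 27.5 in washout. It rose in Ro by 2.40 ± 0.42, or 5.27-fold (adjusted p = 0.0094), and its control level lay between the 2 washout arrays. Lgr5, a stem cell marker in several epithelia, read 3.73 and 3.38 in control, 27.8 and 28.4 in Ro, and 39.7 and 7.00 in washout. Neither control array was well above background, and Lgr5 was at least 4.09-fold higher in Ro by a bound that is not firm. Such a bound sets the mean of the brighter group against the lowest signal called above background on each array. The gene's own signal is used where that was higher. The lowest signals called on the control arrays were 5.86 and 6.05, yet the Apcdd1 spot on control 2 was not called at 13.8. The fitted rise of Lgr5 was 2.78 ± 0.80 (adjusted p = 0.043). The large error comes from the washout arrays, which share in the estimate of spread. With the control and Ro arrays alone the rise was 2.78 ± 0.08 (adjusted p = 7.2e-04). Neither control reading in that fit was well above background, so that its smaller error does not resolve the size of the rise.

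The Lgr5 reading on washout 1 came from a bright stretch of that array. The dim spots around the Lgr5 spot (within 8 rows and 4 columns) had a median intensity of 81.6 there, 13.8 times the median of dim spots on the whole array, and 5.60 on washout 2, 0.948 times. Washout 1 thus read lower for Lgr5 than the dim spots around it. For all other pairs of a probe and an array, the ratio did not exceed 1.79, that of the dimmer Nkd2 probe on control 1. For Lgr6 the ratio was 1.31 and 1.29 on the Ro arrays, and 0.941 and 0.921 on the washout arrays.

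**Figure D2:**
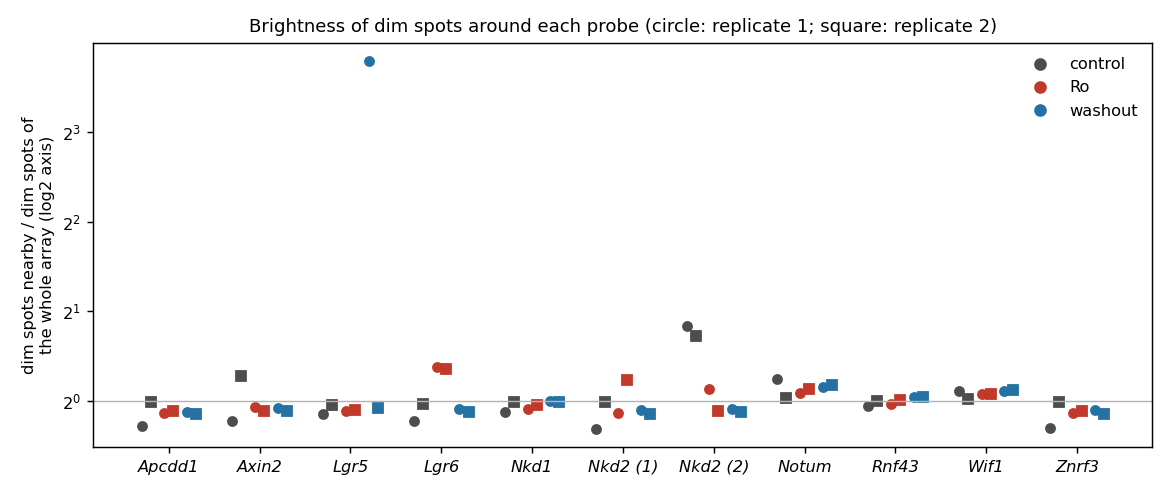
Median intensity of the dim spots around each of the 11 probes, divided by the median of dim spots on the whole array (vertical axis, log2 scale), by gene and array; Nkd2 has 2 probes. The washout 1 point of Lgr5, at 13.8, stands far above all others, which lie between 0.811 and 1.79.

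With normexp background correction (offset 50) in place of the processed intensity, the rise of Lgr5 was 0.32 and no longer called (adjusted p = 0.11), and the rises of the other dim genes were smaller: 0.95 for Lgr6, 3.67 for Apcdd1, 3.72 for Wif1, 4.11 for Rnf43 and 2.32 for Nkd2. Notum rose by 5.31 in the same fit. The Lgr5 call was also lost without a filter on dim probes and without either control array or either Ro array. The calls of the other 9 genes held under every alternative in which they could be tested.

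Promoter sequence was taken from RefSeq (GRCm38.p6), whose table matched 6 of the 10 genes and gave 7 start sites, of which Rnf43 had 2. The 250 bases before the start are shown for Axin2, Nkd1 and the first Rnf43 start, as 3 genes that rose together in Ro from starts of different make-up, 5′ to 3′ on the gene's strand. Capitals mark CpG dinucleotides. The stretches are chr11:108920099-108920348 (plus strand) for Axin2, chr8:88527383-88527632 (plus strand) for Nkd1 and chr11:87662837-87663086 (plus strand) for Rnf43.
Axin2: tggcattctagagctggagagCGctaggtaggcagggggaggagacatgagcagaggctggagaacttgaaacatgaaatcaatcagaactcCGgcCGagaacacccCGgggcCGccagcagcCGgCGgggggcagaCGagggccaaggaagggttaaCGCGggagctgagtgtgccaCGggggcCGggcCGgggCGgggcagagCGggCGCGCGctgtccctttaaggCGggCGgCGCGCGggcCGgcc
Nkd1: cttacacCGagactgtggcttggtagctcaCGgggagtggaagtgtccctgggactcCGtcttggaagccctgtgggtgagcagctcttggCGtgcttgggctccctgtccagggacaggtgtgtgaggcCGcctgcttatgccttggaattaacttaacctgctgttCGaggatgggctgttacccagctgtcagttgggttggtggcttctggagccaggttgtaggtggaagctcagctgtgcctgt
Rnf43: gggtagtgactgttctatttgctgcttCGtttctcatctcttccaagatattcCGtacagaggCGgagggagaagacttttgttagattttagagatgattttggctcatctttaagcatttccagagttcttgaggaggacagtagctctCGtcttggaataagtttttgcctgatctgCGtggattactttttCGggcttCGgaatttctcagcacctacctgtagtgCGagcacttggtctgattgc
The Axin2 stretch held 24 CpG and was 69.2% G or C, the Nkd1 stretch held 6 and was 58.4%, and the Rnf43 stretch held 8 and was 44.4%. Over all 32851 promoters of the table the median was 6 CpG and 52.4%. The letters CTTTGAT and CTTTGAA, forms of the TCF/LEF recognition motif that share CTTTGA, were searched on both strands of the 300 bases from 250 before to 50 after each start. None of the 7 promoters held either, as against 3.73% and 5.14% of all promoters in the table, and none held CTTTGA, found in 16.0%. The match or its lack describes these windows only.

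After washout 9 of the 10 genes were lower than in Ro, each with no overlap between arrays, and the exception was Lgr5. The median change of the set was -4.99, against -0.02 over all features. Of all features 20.1% were called lower in washout than in Ro, and 38.2% were lower with no overlap. A fall of at least 4 on the log2 scale was found for 6 of the 10 genes and 0.259% of all features. With normexp it was found for 3 of the 10 genes, and the share of all features was again not counted. Apcdd1 and Lgr5 entered the test through Ro, where they were high. Of the other 8 genes all 8 were called lower, 5 of them by at least 4. The Ro arrays serve in both this comparison and the one before, so that the 2 sets of changes are not independent. With no culture kept in Ro for the same time, removal of the inhibitor and time since its addition cannot be told apart either.

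Notum changed by -5.52 ± 0.11 (45.9-fold lower, adjusted p = 5.7e-05), Rnf43 by -5.20 ± 0.13 (36.9-fold lower, adjusted p = 1.0e-04) and Nkd1 by -5.01 ± 0.07 (32.3-fold lower, adjusted p = 3.8e-05). These 3 genes stayed well above background after washout. The fall of Axin2 was smaller, at -2.83 ± 0.13 (7.11-fold lower, adjusted p = 2.3e-04), and that of Znrf3 was -0.55 ± 0.09 (1.47-fold lower, adjusted p = 0.0079). The Znrf3 call was lost without Ro 1 (adjusted p = 0.057). Lgr6 changed by -2.70 ± 0.42 (adjusted p = 0.0063), with 1 of 2 washout arrays above background, by -2.05 without washout 1, by -3.36 without washout 2 and by -1.08 with normexp. Rnf43 changed by -3.95 with normexp.

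The genes that were not well above background on either washout array have no resolved level there. Apcdd1 was at least 96.3-fold lower than in Ro by the rule given for Lgr5 (adjusted p = 3.8e-05). For Wif1 and Nkd2 that rule used their own uncalled signals and gave no bound beyond the fit. Wif1 was 52.2-fold lower (adjusted p = 8.2e-05) and Nkd2 31.4-fold lower (adjusted p = 1.2e-04). The fitted changes were -7.36 ± 0.11, -5.70 ± 0.13 and -4.97 ± 0.14. With normexp, which adds an offset that shrinks changes of dim spots, they were -3.95, -4.02 and -3.10. The Apcdd1 bound rests on the lowest signal called above background, 10.7 on washout 2, where the Wif1 spot was not called at 29.9. It is therefore not a firm limit. The fitted change of Apcdd1 was the second lowest of all 20101 features, by a value that lies below the range the arrays resolve. Lgr5 changed by -0.71 ± 0.80 (95% interval -2.76 to 1.33, adjusted p = 0.51). Without washout 1, whose spot lay in the bright stretch, its change was -1.98 (adjusted p = 0.0021), in a fit that takes the spread of the lone washout array from the other groups. That array's Lgr5 reading was not above background, so that the size of this change is not resolved.

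**Figure D3:**
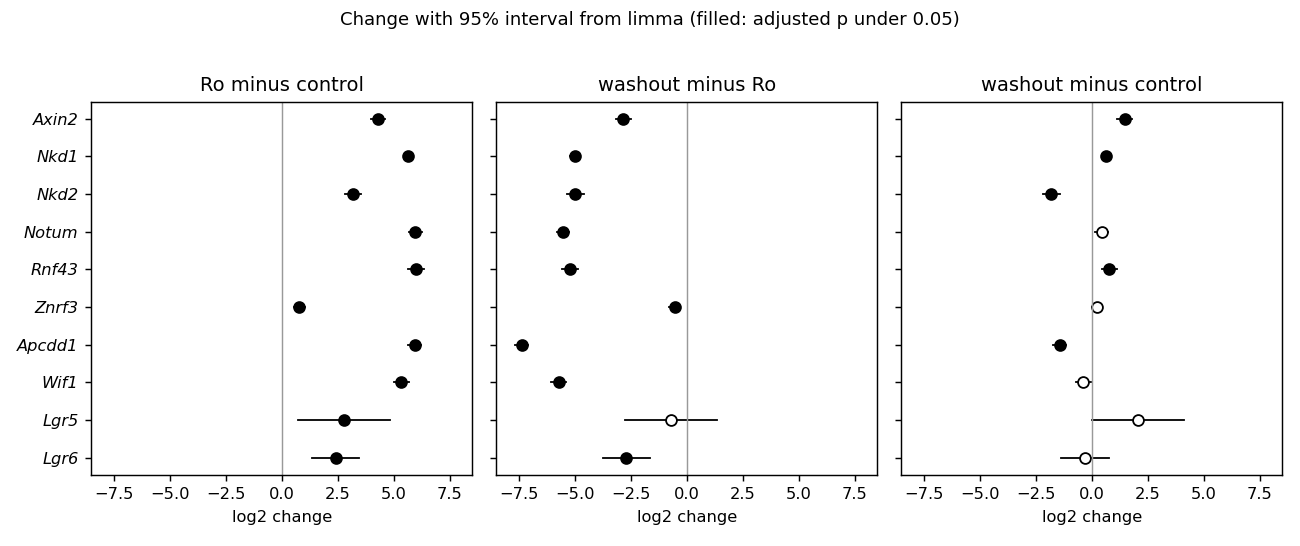
Log2 change (horizontal axis) of each gene in the 3 comparisons, with points at the estimate, bars for the 95% interval from limma and filled points at an adjusted p under 0.05. All 10 points lie to the right of 0 for Ro minus control, all 10 to the left for washout minus Ro, and the points for washout minus control lie on both sides.

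Set against control, the genes no longer shared a direction after washout. Axin2, Nkd1 and Rnf43 were higher, Nkd2 and Apcdd1 were lower, and Notum, Znrf3, Wif1, Lgr5 and Lgr6 did not pass the test. Of all features 4.13% were called higher and 5.98% lower in washout than in control, so that higher calls made up 40.8% of calls. That share was 30.7% when arrays were centred on their medians and 29.1% when the authors' values were used. Neither of these scalings altered which of the 10 genes were called. Without overlap between arrays, 6 of the 10 were higher and 3 lower, where 26.8% and 29.4% of all features were. Without Apcdd1 and Lgr5, which entered the test through Ro, 5 of the other 8 were higher and 2 lower. The higher ones included Lgr5, with its reading from the bright stretch, and the lower ones Wif1, whose arrays overlapped as deposited. The median change of the set was 0.34, against -0.01 over all features. The control and washout arrays are also part of the comparisons above.

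Axin2 was higher by 1.46 ± 0.13, or 2.75-fold (adjusted p = 0.0090). On the linear scaled intensity, its 2 washout arrays lay above control by 8.59% and 10.3% of its rise in Ro. Such a percentage is called left here, though slide and age also differed between washout and control. Nkd1 was higher by 0.62 ± 0.07, or 1.54-fold (adjusted p = 0.015), with 1.05% and 1.15% of its rise left. Rnf43 was higher by 0.77 ± 0.13, or 1.71-fold (adjusted p = 0.033), with 1.53% and 0.807% left. With normexp the Rnf43 change was 0.16 and not called (adjusted p = 0.41). The percentage left was thus largest for Axin2 among these 3 genes, on both arrays. Of the 2 that rose and were above background throughout but did not pass here, Notum (0.44 ± 0.11, adjusted p = 0.070) had 0.378% and 0.796% of its rise left. Znrf3 (0.23 ± 0.09, adjusted p = 0.19) had 14.9% and 32.7% left of a rise that was itself small.

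Nkd2 was 3.50-fold lower in washout than in control by the fit (-1.81 ± 0.14, adjusted p = 0.0077), with neither washout array well above background. The change was -0.79 with normexp and -1.15 with the mean of the 2 Nkd2 probes. On the dimmer probe neither group was above background, so that the lower level rests on 1 probe. Apcdd1 was at least 1.59-fold lower by the rule above, which is not a firm limit (fitted -1.44 ± 0.11, adjusted p = 0.0077). With normexp its change was -0.28. On the Apcdd1 probe and the brighter Nkd2 probe both washout readings were below both control readings. Dim spots were brighter on the washout slide, and the part of the slide in these levels was not tested. The Apcdd1 reading on washout 1 was 5.46, level with the median of the dim spots around it, 5.47. Wif1 was at -0.39 ± 0.13 (95% interval -0.73 to -0.05, adjusted p = 0.14) and Lgr6 at -0.30 ± 0.42 (-1.37 to 0.76, adjusted p = 0.68). Lgr5 was at 2.07 ± 0.80 (0.02 to 4.11, adjusted p = 0.17) with both washout arrays. Without washout 1 no Lgr5 reading of either group was above background, and no change is given.

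The calls against control were the least stable. Without either control array fewer of the 10 genes were called than the 5 with all arrays. Calls over all features also became fewer in those fits. The Rnf43 call was lost in 8 of 17 alternatives. These count the fit of only the 4 arrays compared and its repeats, those without either Ro array, apart. The Nkd1 call was lost in 4 (no filter, and without control 1, control 2 or washout 1). That of Apcdd1 was lost without control 2 and with normexp (-0.28, adjusted p = 0.14), and that of Axin2 with no filter (adjusted p = 0.053).

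Markers of other cells moved with these groups. On the sum of scaled intensities, each divided by the array's 75th percentile, the 4 oligodendrocyte precursor markers tested stood at 24.2 to 24.5 in control, 6.04 to 6.05 in Ro and 15.0 to 15.8 in washout. The 5 pericyte and smooth muscle markers stood at 547 to 601, 208 to 209 and 421 to 434, the 4 ependymal markers at 33.8 to 34.5, 11.6 to 13.5 and 38.2 to 41.1, and the 4 neuronal markers at 8.99 to 9.18, 2.86 to 3.11 and 8.87 to 9.68. The 9 astrocyte markers stood at 183 to 193, 130 to 138 and 181 to 191, and the 7 microglial markers at 4.25 to 4.43, 2.81 to 3.38 and 4.30 to 4.57. All of these sums were lower in Ro than in control. The part of cell make-up in the rise of the 10 genes was not tested. Among single markers, 4 of 4 precursor, 4 of 4 ependymal and 4 of 4 neuronal markers were called lower in Ro. Astrocyte markers were called lower for 6 and higher for 2, microglial for 4 and 1, and pericyte for 3 and 1, the last being Kcnj8 (1.36). The sums weigh the brightest markers most. In the pericyte sum these were Acta2 and Tagln, at 182036 and 228594 on control 1, against 98.7 for Rgs5. In the precursor sum they were Olig1 and Olig2, at 13721 and 3337, against 63.7 for Pdgfra. The 6 meningeal fibroblast markers stood at 12.0 to 14.7, 11.2 to 12.1 and 6.76 to 7.82. In washout against control, as for Nkd2 and Apcdd1, 5 of 6 fibroblast, 3 of 4 precursor, 2 of 5 pericyte and 2 of 2 endothelial markers were called lower, and their part in the lower levels of those 2 genes was not tested. The 4 oligodendrocyte markers stood at 1.1 to 1.18, 0.997 to 1.05 and 1.04 to 1.12, and the 2 endothelial markers tested at 0.712 to 0.812, 0.525 to 0.587 and 0.480 to 0.524. Endothelial Pecam1, Cdh5 and Cldn5, P2ry12 of microglia, Gpr17 of precursors, Mog of oligodendrocytes, Abcc9 of pericytes and Snap25 of neurons were not above background in any group. In RNA from whole cultures, fewer cells of a type and less RNA per cell cannot be told apart.

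The features most like each gene over the 6 arrays were found by the root mean square distance between log2 values centred per feature. Nearest to Axin2 were Lama4, a laminin chain (0.19), Mal, a myelin and lymphocyte protein (0.26), Prok2, a secreted prokineticin (0.30), the Frizzled receptor Fzd10 (0.32) and Grpr, the gastrin-releasing peptide receptor (0.34). Their changes, which the choice by likeness ties to those of Axin2, were 3.77 to 4.54 in Ro minus control and 0.73 to 1.35 in washout minus control. Nkd1, Rnf43 and Notum lay close to each other, at 0.19 for Nkd1 and Rnf43, 0.22 for Nkd1 and Notum and 0.24 for Rnf43 and Notum. Tmem132c, at 0.09 from Nkd1 and 0.18 from Rnf43, and Trpm1, at 0.14 from Notum, were above background on 2 arrays only. Dapk2, a kinase, lay at 0.17 from Notum.

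Wif1 was nearest to Dio2, a deiodinase that activates thyroid hormone (0.15), and Slc7a11, the cystine transporter (0.23), and was 1.20 from Axin2. Nkd2 was nearest to Crispld1 (0.21) and Rerg (0.32), each above background on 4 of 6 arrays. Apcdd1 had no feature as near, with Grem1, a BMP antagonist above background on 2 arrays, at 0.42 and Slc7a11, above background on 4, at 0.61. Znrf3 was nearest to Mpzl1 (0.05) and Fam171b (0.06), and was 2.34 from Rnf43. Lgr6 was nearest to Nipal1 (0.19) and Gabra2 (0.25). For Lgr5, nearest to Cxcl1 (0.20) and Cryba2 (0.43), each above background on 3 arrays, the distance includes the reading from the bright stretch.

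The rest of the pathway was taken from 6 lists, whose counts stand beside 19.4% of all features called higher and 22.7% called lower in Ro. Of 15 other negative regulators tested, 4 rose in Ro and 3 fell (median -0.16). The rises included Sp5, a transcription factor that represses other Wnt targets (8.23 ± 0.08), Tnfrsf19, a membrane receptor (4.87 ± 0.09), and Shisa2, which holds Frizzled in the endoplasmic reticulum (2.01 ± 0.14), and Amer2, which binds Apc, changed by -1.21 ± 0.13. Sp5 and Tnfrsf19 were, like Axin2, higher in washout than in control, by 2.02 ± 0.08 (adjusted p = 0.0033) and 1.19 ± 0.09 (adjusted p = 0.0069). Shisa2 was lower, at -0.77 ± 0.14 (adjusted p = 0.038), with 1 of its 2 washout arrays well above background. Of 8 secreted antagonists tested 4 rose and 4 fell. Sfrp2, Dkk3 and Frzb rose by 4.39 ± 0.08, 2.76 ± 0.07 and 2.22 ± 0.11, and Sostdc1 changed by -1.36 ± 0.09.

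Upstream of Rnf43 and Znrf3, the R-spondin gene Rspo1 read 501 and 441 in control, 4729 and 4443 in Ro, and 698 and 641 in washout. It rose in Ro by 3.08 ± 0.08 (adjusted p = 8.1e-05) and changed by -2.73 ± 0.08 at washout (adjusted p = 1.4e-04). Lgr4, the third R-spondin receptor, read 1214 and 1123, 1700 and 1546, and 1429 and 1611, and did not pass the test in Ro (0.27 ± 0.09, adjusted p = 0.071). Rspo2 was above background in Ro only and did not pass (1.02 ± 0.61, adjusted p = 0.23), and Rspo3 and Rspo4 did not pass the filter on dim probes. Rspo1 and Rnf43 thus both rose in Ro, while no rise of Lgr4 passed the test.

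Of 11 Frizzled receptors and co-receptors tested 4 rose and 5 fell in Ro, led by Fzd10 (3.90 ± 0.07), Fzd1 (1.54 ± 0.07), Fzd8 (-1.26 ± 0.19) and Fzd9 (1.09 ± 0.30). Of 10 Wnt ligands 7 fell and 1 rose (median -1.41), with Wnt7a at -2.76 ± 0.08, Wnt4 at -1.89 ± 0.19 and Wnt7b at -1.69 ± 0.07. The rise was that of Wnt6, at least 5.85-fold by the bound used for Lgr5, which is not firm (adjusted p = 1.8e-04). Of 12 TCF/LEF factors and co-factors 5 rose and 5 fell, with Lef1 at 4.73 ± 0.21, Tle1, a co-repressor, at 1.29 ± 0.10, Tcf7l1 at -1.38 ± 0.10 and Tle2 at -1.12 ± 0.15.

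**Figure D4:**
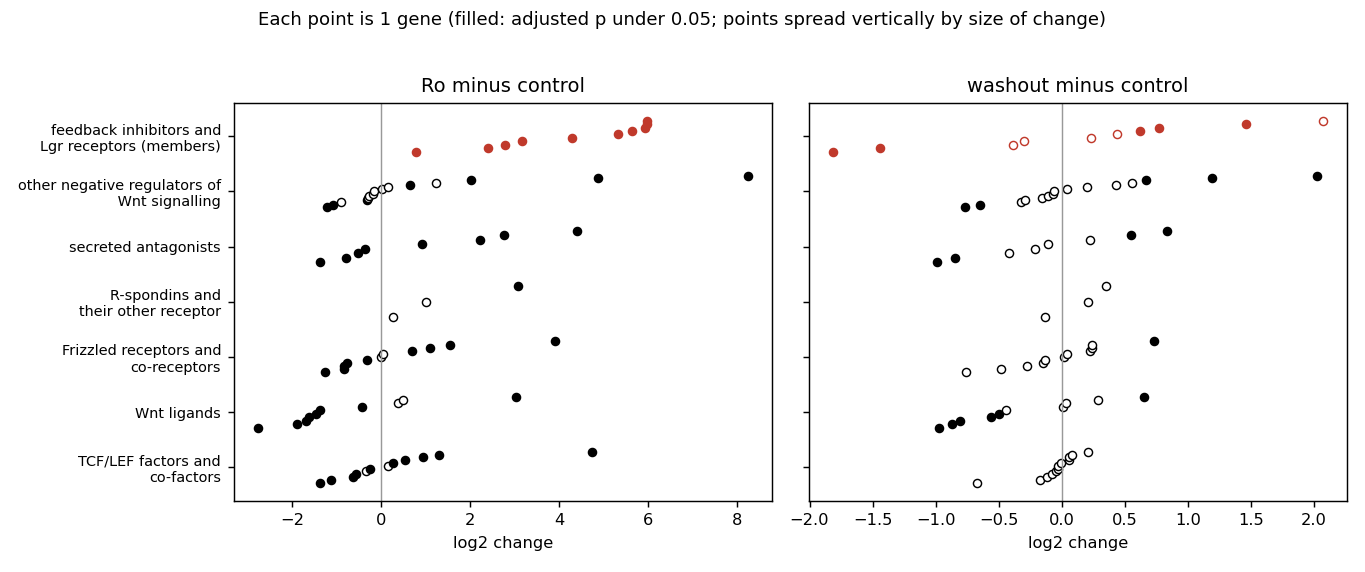
Log2 change of each gene (horizontal axis) in Ro minus control, left, and washout minus control, right, for the 10 genes in red and the 6 pathway lists in black; filled points have an adjusted p under 0.05, and points of a list are spread vertically by size of change. The 10 genes all lie above 0 in Ro, from 0.78 to 5.98, while the lists of 8 or more genes lie on both sides.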

How the data were processed

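RNA was measured on 6 one-colour Agilent arrays. The authors deposited intensity values for each spot, corrected for background within the array by Agilent Feature Extraction (10.1 per the submitters' processing notes, 10.5.1.1 per the file headers) with no scaling from array to array. A further deposited table gives, per probe and sample, a linear ratio whose centring rule is not given in the sources used here. It served as an alternative. Its column medians were 0.871 to 0.987.

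Of 41174 non-control probes, 106 with faulty spots were left out. Spots of a probe were averaged as log2 intensity, and each array's 75th percentile was subtracted. A probe was kept if 1 or more groups had both of its arrays well above background (26486 probes). Accessions matched to RefSeq (GRCm38.p6) named 60.9% of probes, and each gene was represented by its brightest probe (20101 features). All 6 arrays entered 1 model per feature (limma 3.58.1, R 4.3.3; 3 residual degrees of freedom, 2.09 prior), with a moderated, two-sided test and Benjamini-Hochberg adjustment over all features. The procedure was tested on simulated data. The number of arrays limits the precision.

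The 10 genes, the lists and the tests were chosen with earlier results of these data known. Text names all 10 genes, up to 4 genes per list with the largest called change in Ro, and the nearest features (5 for Axin2, 2 for each other gene). Other genes were named after their values were seen: Rspo2, Rspo3, Rspo4 and Lgr4. Alternatives changed the background correction, scaling, values, filter, choice of probe, variance model, arrays in the fit and pairing, and left out each array in turn. Normexp used the median spot signal.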

Additional observations from a re-analysis of the deposited data

How the results depend on the processing

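Over the 10 genes, 3 comparisons and up to 17 alternatives, 466 of 495 values kept their direction and their side of the threshold, 22 lost a call, 5 gained one and 2 changed direction. The 2 that changed direction did so when 1 washout array was left out: Lgr5 in washout minus Ro ranged from -1.98 to 0.56, and Lgr6 in washout minus control from -0.96 to 0.35. In each comparison, the fit of only the 4 arrays compared and those without an array of the third group were the same fit, counted apart. With only probes above background on all 6 arrays, 5 genes could be tested, of which 5 were called in Ro minus control, 5 in washout minus Ro and 3 in washout minus control. Of the 17799 features tested in that way, 8250, 8028 and 2136 were called in the same 3 comparisons. In washout minus control 5 genes were called, 3 with normexp and 2 with no filter. Over all features, 2032 calls in that comparison became 141 with no filter, 761 with only the 4 arrays compared and 771 with the replicate block. Leaving out 1 array gave 9 to 10 genes and 4529 to 8808 features called in Ro minus control (10 and 8461 with all arrays). It gave 8 to 10 genes and 4755 to 7720 features in washout minus Ro (9 and 8332), and 2 to 7 genes and 202 to 1324 features in washout minus control. In these fits a lone array is assumed to vary like the other groups. The cause of the other differences was not tested.

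The replicate numbers shared by the groups are no pairing in the labels, and same-numbered arrays deviated together at r = -0.12 (control and Ro), 0.08 (control and washout) and -0.11 (Ro and washout) across features. With the replicate number as a block, 10, 9 and 4 of the 10 genes were called in the 3 comparisons, the lost call being that of Rnf43 in washout minus control (adjusted p = 0.061). In washout minus Ro, higher calls were 51.5% of all calls, 40.5% when arrays were centred on their medians (median feature at -0.11) and 38.9% when the authors' values were used (-0.12). Without a filter the median feature was at 0.14. The same number of the 10 genes, 9, was called in washout minus Ro under these 3 alternatives. Dim signal limits Lgr5, Lgr6, Apcdd1, Rnf43 outside Ro and, after washout, Nkd2 and Wif1.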
